A study of Mus musculus with 8 samples.

Results

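The genes described here are 10 Wnt feedback targets: Axin2, Nkd1, Nkd2, Rnf43, Znrf3, Apcdd1, Wif1, Tnfrsf19, Notum and Sp5. They were chosen by name from 28792 gene symbols, and each has 1 row in both gene tables. Bulge hair follicle stem cells, the cells that rebuild the hair at each cycle, had been sorted from mouse back skin for RNA sequencing in 2 pairs of libraries, with 1 library in each group. The first pair came from female C57BL6/129Sv mice of day 99. Cells labelled cKO carried K15CrePGR, 2 floxed copies of Ctnnb1 (Ctnnb1fl/fl), the gene of β-catenin, and the Rosa-YFPfl/stop/fl reporter. Cells labelled Het carried the same Cre and reporter with 1 floxed copy (Ctnnb1+/fl), which Cre can delete there too. Cre is driven there by the promoter of keratin 15 and fused to a progesterone receptor domain. The sources used here give neither the inducing treatment nor the number of mice per library. The labels name telogen, the resting phase, in 1 field and the onset of anagen, the growth phase, in another. The second pair came from male C57BL6 mice of day 24 passing from telogen to anagen. All of them were Axin2LacZ/+, so both libraries carried the reporter in 1 copy of Axin2, and the bulge cells were split at the sorter by their reporter signal (LacZ-positive, LacZ-negative). The 4 chromatin immunoprecipitation samples of the series were not analysed here.

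In the canonical Wnt pathway, Wnt proteins bind Frizzled and LRP receptors and stop the destruction of β-catenin, which then acts with TCF/LEF factors on target genes. Several of these targets encode proteins that dampen the pathway at successive steps, and their transcripts are widely used as a readout of it. In the follicle, Wnt signalling is known for its part in the passage from rest to growth. Axin2 is a scaffold of the complex that destroys β-catenin. Nkd1 and Nkd2 bind Dishevelled, Rnf43 and Znrf3 are ubiquitin ligases that remove Frizzled receptors from the membrane, and Apcdd1 is a membrane protein that inhibits Wnt at the receptor. Wif1 and Notum are secreted: Wif1 binds Wnt proteins, and Notum is an enzyme that strips their lipid. Tnfrsf19, also called Troy, is a receptor of the TNF receptor family, and Sp5 is a zinc finger transcription factor.

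Values are FPKM, fragments scaled to transcript length and library size, which keep no read counts. The total depth is therefore unknown, but a relative depth could be read from the lowest values. Among 1149 rows between 0.0001 and 0.05 FPKM in both libraries of the first pair, the commonest ratio corresponded to 0.964 times as many fragments in cKO-labelled as in Het-labelled cells. The same reading of 936 rows gave 1.07 times as many fragments in LacZ-positive as in LacZ-negative cells. With 1 library per group there was no test, and every difference below describes these libraries only. Ctnnb1 itself stood at 370 FPKM in cKO-labelled cells and 251 FPKM in Het-labelled cells. The floxed exons cannot be separated within a value for the whole gene, which therefore leaves the genotype unchecked, and the libraries are called by their labels. The sorted cells carried the bulge markers: Cd34 stood at 752, 645, 223 and 516 FPKM in cKO-labelled, Het-labelled, LacZ-positive and LacZ-negative cells. Krt15 stood at 7528, 6208 and 5951 FPKM in the first 3 of these and was listed at 0 in LacZ-negative cells. Such an exact 0 can also be a failed estimate, so it is not read as absence of Krt15. Endothelial markers, 6 of 6, stayed under 1 FPKM in all 4 libraries.

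In the Ctnnb1 pair, all 7 members reaching 1 FPKM in either library were lower in cKO-labelled cells. So were 39.1% of all genes reaching it. The members were lower by very unequal amounts. Axin2 and Wif1 stood at 13.0% and 11.2% of their level in Het-labelled cells, and the other 5 members tested at between 53.7% and 94.3% of it. Axin2 (ENSMUSG00000000142, mm9 chromosome 11, positions 108781662 to 108812097) had 2.12 FPKM in cKO-labelled cells and 16.3 FPKM in Het-labelled cells. Wif1 (ENSMUSG00000020218, mm9 chromosome 10, positions 120471015 to 120537706) had 2.20 FPKM in cKO-labelled cells and 19.6 FPKM in Het-labelled cells. These ratios of FPKM correspond to 7.70-fold for Axin2 and 8.93-fold for Wif1, higher in Het-labelled cells. Fewer expressing cells and less RNA per cell cannot be told apart in such bulk samples.

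The stretches before the transcription starts of 4 members are shown because these genes mark the extremes of the data: Axin2 and Wif1 are the lowest in the Ctnnb1 pair, Tnfrsf19 is the highest in the LacZ pair, and Sp5 is listed at 0 throughout. They are the 250 bases before an annotated start, from RefSeq on build GRCm38.p6, on the strand of the gene, and capitals mark the TCF/LEF core CTTTGAT or its reverse complement ATCAAAG.
Axin2, chr11:108920099-108920348, plus strand: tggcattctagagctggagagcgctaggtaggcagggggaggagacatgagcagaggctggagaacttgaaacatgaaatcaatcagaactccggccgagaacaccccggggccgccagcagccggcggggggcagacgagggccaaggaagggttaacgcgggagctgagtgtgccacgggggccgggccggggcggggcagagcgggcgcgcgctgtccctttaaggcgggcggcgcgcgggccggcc
Wif1, chr10:121033754-121034003, plus strand: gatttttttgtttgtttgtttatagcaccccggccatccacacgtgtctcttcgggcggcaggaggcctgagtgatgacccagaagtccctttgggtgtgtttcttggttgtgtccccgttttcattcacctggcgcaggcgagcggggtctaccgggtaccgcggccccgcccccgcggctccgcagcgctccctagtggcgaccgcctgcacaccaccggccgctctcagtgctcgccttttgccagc
Tnfrsf19, first annotated start, chr14:61046856-61047105, minus strand: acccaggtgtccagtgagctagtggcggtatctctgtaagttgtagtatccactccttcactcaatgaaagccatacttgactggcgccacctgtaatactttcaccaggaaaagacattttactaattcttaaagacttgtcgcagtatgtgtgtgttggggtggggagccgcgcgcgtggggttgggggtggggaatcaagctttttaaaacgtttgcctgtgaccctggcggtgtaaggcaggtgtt
Tnfrsf19, second annotated start, chr14:61037988-61038237, minus strand: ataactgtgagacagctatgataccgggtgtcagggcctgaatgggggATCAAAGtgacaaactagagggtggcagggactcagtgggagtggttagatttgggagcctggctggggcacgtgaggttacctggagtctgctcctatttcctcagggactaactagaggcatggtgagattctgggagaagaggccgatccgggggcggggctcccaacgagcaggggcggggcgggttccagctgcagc
Sp5, chr2:70474673-70474922, plus strand: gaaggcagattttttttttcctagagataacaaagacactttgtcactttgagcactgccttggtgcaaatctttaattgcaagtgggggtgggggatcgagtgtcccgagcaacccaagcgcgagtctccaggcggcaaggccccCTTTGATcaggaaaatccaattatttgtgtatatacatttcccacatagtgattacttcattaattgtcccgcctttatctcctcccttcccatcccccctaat
Windows of 7 of the 10 members were searched, with a second start for Rnf43 and Tnfrsf19. None was searched for Znrf3, Notum and Apcdd1, so nothing is said of the letters before their starts. The motifs searched on both strands were CTTTGAT and CTTTGAA (reverse complements ATCAAAG and TTCAAAG), which share their first letters and cannot lie at the same position. The core was found in Sp5, 104 bases before the start, and in the second Tnfrsf19 window but not the first, 202 bases before the start. CTTTGAA was found in none of the 9 windows. Of all 32851 windows of this length in the table, with no chromosome left out, 3.21% hold CTTTGAT and 4.46% hold CTTTGAA on either strand. A match describes these letters and not a bound site, and these windows leave out introns and distal regions. Axin2 and Wif1 had no match in the window searched, and any bearing of these letters on the levels of the members was not tested.

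Each difference below is a log2 ratio of (FPKM + 1) between the libraries of a pair, tested genes are those reaching 1 FPKM in at least 1 of them, and 1 or -1 on this scale was used as a 2-fold line. The pseudocount of 1 compresses the ratio of low genes. On this scale Wif1 differed by -2.69 and Axin2 by -2.47. Among the 12817 tested genes above 0 in both libraries, Wif1 held rank 8 and Axin2 rank 15 from the lowest difference. Among all 13014 genes tested, which include genes at 0 in 1 library, the ranks were 85 and 98. Of the 7 members at 1 FPKM or more, 2 lay below the line, against 2.29% of all 13014 genes tested. Among the 5512 genes above 0 in both libraries with mean levels between those of the lowest and highest tested member, 1.51% lay below it.

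The other intracellular and membrane members differed less. Nkd1 stood at 1.49 FPKM in cKO-labelled cells and 2.78 FPKM in Het-labelled cells, a log2 difference of -0.60. Rnf43 stood at 12.5 and 15.7 FPKM in cKO-labelled and Het-labelled cells, a difference of -0.30. Its relative Znrf3 stood at 3.15 and 4.10 FPKM in the same order, again a difference of -0.30. Apcdd1 stood at 2.88 FPKM in cKO-labelled cells and 3.86 FPKM in Het-labelled cells, a difference of -0.33. Tnfrsf19 was almost level, with 2.95 FPKM in cKO-labelled cells and 3.13 FPKM in Het-labelled cells (-0.06). All 7 tested members thus had a difference below 0, as 39.1% of all genes tested did, and the members' median was -0.33 beside a median of 0.06 over all genes tested. Apart from Axin2 and Wif1, all of them lay inside the central 95% of genes of similar level, which ran from -0.77 to 0.67.

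**Figure D1:**
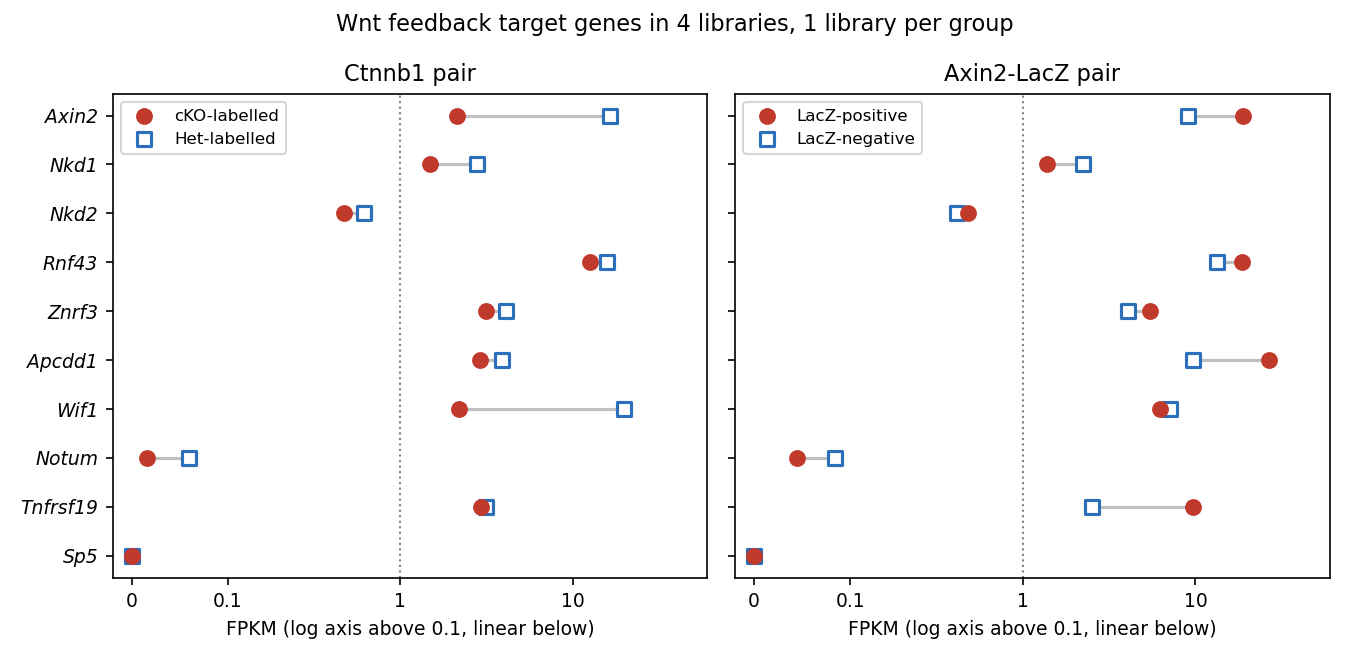
FPKM of the 10 members, with the Ctnnb1 pair on the left and the Axin2-LacZ pair on the right; the horizontal axis is logarithmic above 0.1 and linear below, and the dotted line marks 1 FPKM. Each symbol is 1 library: filled circles are cKO-labelled and LacZ-positive libraries, open squares the Het-labelled and LacZ-negative ones. Axin2 (2.12 against 16.3 FPKM) and Wif1 (2.20 against 19.6 FPKM) were farthest apart on the left, and Tnfrsf19 (9.63 against 2.52 FPKM) and Apcdd1 (26.8 against 9.71 FPKM) on the right.

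The remaining 3 members were at the lower end of the tables in all libraries. Nkd2 had 0.470 FPKM in cKO-labelled cells and 0.615 FPKM in Het-labelled cells. It had 0.482 FPKM in LacZ-positive and 0.418 FPKM in LacZ-negative cells. Nkd2 was therefore the lower of the pair of Naked genes everywhere, with Nkd1 at between 2.87 and 5.36 times its level. Notum was close to 0, with 0.0157 FPKM in cKO-labelled cells and 0.0594 FPKM in Het-labelled cells, and 0.0448 FPKM in LacZ-positive and 0.0840 FPKM in LacZ-negative cells. No difference is drawn from values this low. Sp5 was listed at 0 in all 4 libraries, and an exact 0 in such a table can also be a failed estimate.

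The order of the members differed between the libraries. Het-labelled cells were led by Wif1, Axin2 and Rnf43, which held 29.7%, 24.7% and 23.7% of the summed FPKM of the 10 members. In cKO-labelled cells Rnf43 alone held 45.0% of the sum, while Wif1 held 7.91% and Axin2 7.64%. The sum was 27.8 FPKM in cKO-labelled cells and 66.2 FPKM in Het-labelled cells. Rnf43 was the steadiest of the abundant members, between 12.5 and 18.7 FPKM over the 4 libraries, and it stood above Znrf3 in each of them, at between 3.30 and 3.98 times its level. There is no spread between replicates by which neighbours in these orders could be told apart.

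In the Axin2-LacZ pair, the members went both ways. Tnfrsf19, Apcdd1 and Axin2 were higher in LacZ-positive cells by 3.82-fold, 2.76-fold and 2.09-fold in FPKM, Rnf43 and Znrf3 were higher by less, and Nkd1 and Wif1 were lower. Axin2 had 19.0 FPKM in LacZ-positive cells and 9.10 FPKM in LacZ-negative cells. Since the cells were sorted by a reporter placed in Axin2, this value describes the sort and is not a result of it. Its log2 difference was 0.98, just inside the 2-fold line with the pseudocount, and 1.06 as a plain log2 ratio of the FPKM.

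The members past the line were Tnfrsf19 and Apcdd1. Tnfrsf19 (ENSMUSG00000060548, mm9 chromosome 14, positions 61582670 to 61665692) had 9.63 FPKM in LacZ-positive cells and 2.52 FPKM in LacZ-negative cells, a log2 difference of 1.60. Apcdd1 (ENSMUSG00000071847, mm9 chromosome 18, positions 63081980 to 63112849) had 26.8 FPKM in LacZ-positive cells and 9.71 FPKM in LacZ-negative cells, a difference of 1.38. Both lay above the central 95% of genes of similar level, which ran from -0.92 to 1.34 in this pair, and the other 5 tested members, Axin2 included, lay inside it. Tnfrsf19 and Apcdd1 held ranks 123 and 223 from the highest among 13080 tested genes above 0 in both libraries. Among all 13283 genes tested the ranks were 252 and 354. In this pair 4.67% of all 13283 genes tested and 4.64% of the 6859 genes in the members' range of levels lay above the 2-fold line. Of the 7 tested members, 2 did.

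The ubiquitin ligases were both higher, by less. Rnf43 had 18.7 FPKM in LacZ-positive and 13.4 FPKM in LacZ-negative cells (0.45), and Znrf3 had 5.45 and 4.07 FPKM in the same order (0.35). Nkd1 had 1.38 FPKM in LacZ-positive cells and 2.24 FPKM in LacZ-negative cells (-0.44). Wif1 had 6.24 FPKM in LacZ-positive cells and 7.15 FPKM in LacZ-negative cells (-0.17). The pair as a whole was shifted, with a median of -0.17 over the 9252 genes reaching 5 FPKM in both libraries, and relative to that median Wif1 was level (-0.0019) and Nkd1 at -0.27. The members' median was 0.45, or 0.62 relative to that shift, beside -0.13 over all genes tested, of which 63.4% were below 0. The summed FPKM of the 10 members was 87.8 for LacZ-positive cells and 48.7 for LacZ-negative cells, and Apcdd1 gave 30.6% of the LacZ-positive sum. The members' median and these sums include Axin2, the gene of the sort reporter. Axin2 gave 21.6% of the LacZ-positive and 18.7% of the LacZ-negative sum.

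**Figure D2:**
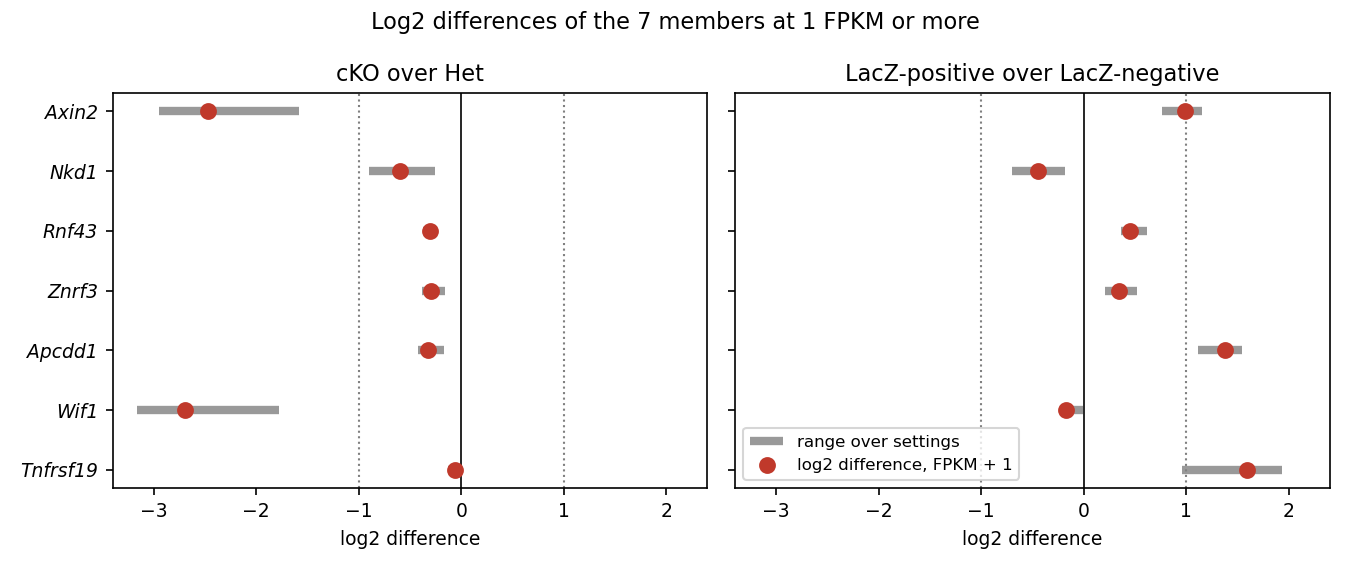
Log2 differences of (FPKM + 1) for the 7 members at 1 FPKM or more (circles), cKO over Het on the left and LacZ-positive over LacZ-negative on the right; grey bars span the values under the other processing settings and dotted lines mark 2-fold. Axin2 (-2.47) and Wif1 (-2.69) lie far below the line on the left under each setting drawn, and Axin2 lies at the line on the right (0.98, between 0.77 and 1.15).

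The pairs share no library, and set side by side they show different members at the extremes. Axin2 was at -2.47 in cKO over Het and at 0.98 in LacZ-positive over LacZ-negative, the pair sorted by its own reporter. Wif1, the lowest in the Ctnnb1 pair (-2.69), was near level in the LacZ pair (-0.17). Tnfrsf19 and Apcdd1, the highest in the LacZ pair (1.60 and 1.38), were at -0.06 and -0.33 in the Ctnnb1 pair. Nkd1 was lower in cKO-labelled cells (-0.60) and also lower in LacZ-positive cells (-0.44). The tables were normalized separately, so levels of the 4 libraries are set beside each other here only as deposited.

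**Figure D3:**
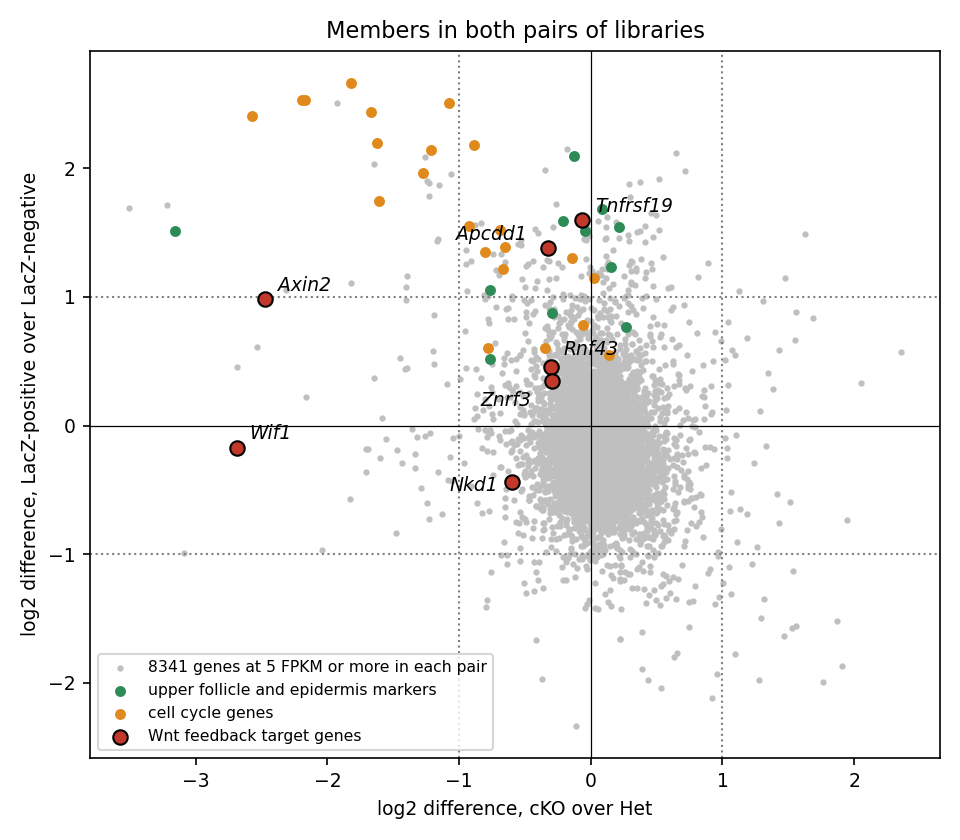
Each point is a gene, placed by its log2 difference of (FPKM + 1) in cKO over Het (horizontal) and in LacZ-positive over LacZ-negative (vertical); red points are the 7 tested members, green and orange points 2 marker lists, grey points 8341 genes at 5 FPKM or more in at least 1 library of each pair, and dotted lines mark 2-fold. Axin2 lies at upper left (-2.47 and 0.98), Wif1 at the left near the horizontal axis (-2.69 and -0.17), and Tnfrsf19 and Apcdd1 at the top (1.60 and 1.38) among markers of the upper follicle and epidermis.

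The genes nearest to Axin2 in this plane of differences, over 2 pairs of libraries and 8341 genes above 0 in all 4 libraries and at 5 FPKM or more in at least 1 library of each pair, with small RNAs, predicted genes and pseudogenes left out by name, were Serpinb11, Tgfb3, Fam40b, Ube2t and Fyb. Serpinb11, a serpin, was at a distance of 0.17 log2 units. It had 9.98 FPKM in cKO-labelled and 53.7 FPKM in Het-labelled cells, and 7.91 FPKM in LacZ-positive and 3.30 FPKM in LacZ-negative cells. Tgfb3, a TGF-β ligand, followed at 0.38, and the fifth, Fyb, at 0.82. The genes nearest to Tnfrsf19 were Dsc1, a desmosomal cadherin of differentiating epidermis, Cst6, Lipm, Serpinb2 and Cyp2b19, at distances between 0.07 and 0.13. Dsc1 had 15.3 FPKM in LacZ-positive and 4.61 FPKM in LacZ-negative cells.

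Some lists of marker genes differed within a pair and others were near level, and their part in the differences of the members was not tested. Of 12 markers of the upper follicle and epidermis, 12 were higher in LacZ-positive cells and 9 of them past the line, with a summed level of 3674 FPKM in LacZ-positive and 1304 FPKM in LacZ-negative cells. In the Ctnnb1 pair the same list summed to 775 FPKM in cKO-labelled and 775 FPKM in Het-labelled cells. Krt10 gave most of both sums (480 and 430 FPKM in the same order). Of the 11 tested genes, 7 were lower and 4 higher in cKO-labelled cells, with a median of -0.13 and 1 past the line, Lgr6. Of 10 hair germ markers, 7 were tested in the Ctnnb1 pair and all 7 were lower in cKO-labelled cells, with a median of -0.58 and sums of 177 FPKM in cKO-labelled and 286 FPKM in Het-labelled cells. Gli1, a Hedgehog target and transcription factor, lay past the line (11.8 FPKM in cKO-labelled and 29.4 FPKM in Het-labelled cells), and the stem cell receptor gene Lgr5 stood at 108 and 183 FPKM in the same order. Lgr5 thus gave most of both sums. The hair germ list shares Lgr5, Lef1, Shh, Dlx3 and Msx2 with the list of other reported Wnt targets below. In the LacZ pair, 4 of 8 tested hair germ markers were higher and 4 lower in LacZ-positive cells, with sums of 120 FPKM in LacZ-positive and 159 FPKM in LacZ-negative cells, and Dlx3 and Msx2 lay past the line on the lower side. Bulge markers, 11 of 11 tested, lay within the line in the Ctnnb1 pair with a median of 0.21. Their median in the LacZ pair was -0.52, or -0.35 relative to the shift of all genes. There Cd34, given above, and the T-box gene Tbx1 (122 FPKM in LacZ-positive and 303 FPKM in LacZ-negative cells) lay past the line on the lower side. Krt15, listed at 0 in LacZ-negative cells, lay past it on the upper side, which rests on that 0 alone and can be a failed estimate. Of 24 cell cycle genes, 23 were tested in the Ctnnb1 pair and 21 were lower in cKO-labelled cells, 10 of them past the line, with sums of 132 FPKM in cKO-labelled and 188 FPKM in Het-labelled cells. All 24 were higher in LacZ-positive cells, 19 of them past the line, with sums of 442 FPKM in LacZ-positive and 171 FPKM in LacZ-negative cells. Among markers of dermal papilla and fibroblasts, Sox2 was listed at 0 in all 4 libraries and 10 of 14 stayed under 1 FPKM in the Ctnnb1 pair. Crabp1 was higher in cKO-labelled cells (25.5 against 8.77 FPKM) and so was Col1a1 (10.3 against 3.72 FPKM), while Vim was lower (1.05 against 3.05 FPKM, a difference of -0.98). The list summed to 50.4 FPKM in cKO-labelled and 27.1 FPKM in Het-labelled cells. In the LacZ pair it summed to 19.6 FPKM in LacZ-positive and 21.9 FPKM in LacZ-negative cells, with 2 of 5 tested genes past the line, both higher in LacZ-positive cells: Vim (6.12 against 1.82 FPKM) and Dcn (2.16 against 0.423 FPKM). Leukocyte markers summed to 11.2 FPKM in cKO-labelled and 7.65 FPKM in Het-labelled cells, and to 8.27 FPKM in LacZ-positive and 4.59 FPKM in LacZ-negative cells. Melanocyte markers summed to 45.5 and 47.4 FPKM in cKO-labelled and Het-labelled cells, mostly through Mitf (43.2 and 44.0 FPKM). Dct stood at 0.871 and 1.92 FPKM there. In LacZ-positive and LacZ-negative cells they summed to 29.5 and 28.6 FPKM, mostly through Dct (15.2 and 12.5 FPKM) and Mitf (9.41 and 13.6 FPKM).

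In the rest of the Wnt pathway, few genes lay past the line in the Ctnnb1 pair. Of 108 other pathway genes, 75 were tested there, and 2 lay past the line, both lower in cKO-labelled cells, against 4.09% of all genes tested past it in either direction. They were Lgr6, a receptor of R-spondins (2.04 FPKM in cKO-labelled and 26.2 FPKM in Het-labelled cells), and Cd44, a cell adhesion receptor and reported target (17.4 FPKM and 41.9 FPKM in the same order). None of 8 ligand and Wnt secretion genes, 19 transducers, 9 TCF/LEF and TLE genes or 5 other Wnt inhibitors lay past it. The list medians were 0.12, 0.08, 0.05 and 0.15. Among the TCF/LEF genes, Tcf7 was at 43.8% of its level in Het-labelled cells (2.13 FPKM in cKO-labelled and 4.85 FPKM in Het-labelled cells, a difference of -0.91), and it lay past the line with a pseudocount of 0.1 or none. The deposited interval of Tcf7 holds 17 gene rows, its own included, so reads of other genes can enter its value. Lef1 was not tested, as it stayed under 1 FPKM, with 0.0910 FPKM in cKO-labelled and 0.932 FPKM in Het-labelled cells. The 16 other reported targets had a median of -0.53, and 11 of them were lower, among them Ccnd1, a D cyclin, at 23.8 FPKM in cKO-labelled and 42.2 FPKM in Het-labelled cells.

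In the LacZ pair, 75 other pathway genes were tested, 4 lay above and 5 below the line, against 7.27% of all genes tested past it in either direction. Higher in LacZ-positive cells were Lgr6 (34.9 against 11.6 FPKM), the Frizzled gene Fzd10 (9.68 against 3.99 FPKM) and the ligand genes Wnt16 (5.02 against 1.35 FPKM) and Wnt3 (6.44 against 2.41 FPKM). Lower were the receptor genes Fzd9 (5.44 against 25.5 FPKM), Fzd1 (23.6 against 50.3 FPKM) and Ror2 (3.53 against 8.23 FPKM), and the homeobox genes Dlx3 (6.88 against 29.9 FPKM) and Msx2 (2.26 against 7.69 FPKM). Transducers (19 tested) had a median of 0.02 and TCF/LEF and TLE genes (9 tested) one of -0.41 (-0.24 relative to the shift), with none past the line. The 14 other reported targets tested there had a median of -0.32, or -0.15 relative to the shift of all genes. The feedback targets, Axin2 included, stood at 0.45 and 0.62. Axin1, the constitutively expressed relative of Axin2, stood at 35.1 FPKM in cKO-labelled and 33.0 FPKM in Het-labelled cells, and at 23.95 FPKM in LacZ-positive and 43.01 FPKM in LacZ-negative cells. Its differences were 0.09 in the Ctnnb1 pair and -0.82 in the LacZ pair, beside -2.47 and 0.98 for Axin2.

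**Figure D4:**
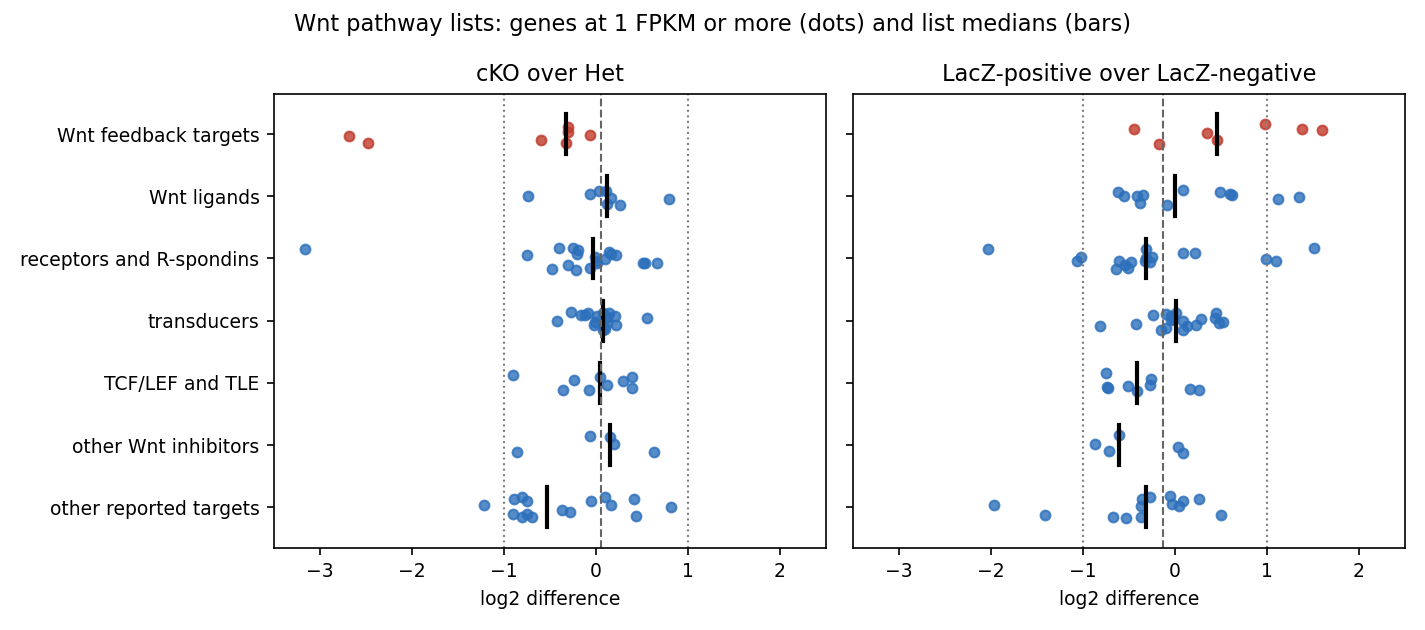
Log2 differences of (FPKM + 1) of the genes at 1 FPKM or more in 7 Wnt pathway lists, cKO over Het on the left and LacZ-positive over LacZ-negative on the right; dots are genes, spread vertically at random within a list, black bars are list medians, the dashed line is the median of all genes tested and dotted lines mark 2-fold. The feedback targets, Axin2 included, have a median of -0.33 on the left and 0.45 on the right, and the other reported targets have medians of -0.53 and -0.32.

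Some members share their deposited interval with other genes, whose reads can enter their values. Axin2 shares it with Gm11670, which had 1.15 FPKM in cKO-labelled and 1.38 FPKM in Het-labelled cells, and 1.25 FPKM in LacZ-positive and 0.378 FPKM in LacZ-negative cells. Rnf43 shares it with 1110028F11Rik, which stayed between 0.186 and 0.522 FPKM, and with a U6 gene listed at 0. Notum shares it with 3 genes at 0.0204 FPKM or less. The other 7 members are alone in theirs.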

How the data were processed

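RNA sequencing libraries of 4 sorted populations were used, 1 per group, grouped by their labels. The authors deposited FPKM values in 2 gene tables, per the file headers, 1 table per pair. The first also holds a deposited log2 fold change by the authors, which lies within 0.01 of the plain log2 ratio for 18011 of the 18107 rows with both FPKM over 0. Per the submitters' processing notes, Cufflinks 2.1.1, TopHat and TopHat2 2.0.4 were used with builds GRCm38 and mm9, in roles not stated; the sources used here do not give strand or multi-read settings. FPKM divides by all fragments and by transcript length. By summed FPKM, mt-Ts1, a mitochondrial transfer RNA, makes up 20.6% to 28.1% of a library. Such a sum gives short RNAs more weight than their fragments do. The share of fragments that mt-Ts1 holds, and any shift of other genes through it, is therefore not known here. Coordinates are taken as mm9, since the highest on chromosome 7 (152509964) exceeds every GRCm38 gene end there (145324059 at most). Rows of one symbol were summed, and 25 symbols turned into dates by a spreadsheet were restored through the Ensembl identifiers. The members, the gene lists and the rules were chosen with earlier results of these data known. Named genes are the members, Ctnnb1, genes sharing their intervals, list genes past the 2-fold line (at most 4 per list and pair, by size) and the 5 genes nearest to Axin2, Wif1 and Tnfrsf19; Ror2, Axin1, Ccnd1, Lef1, Tcf7 and some marker levels were added after their values were seen. The relative depth was read as the commonest log2 ratio of low rows: 308 of 1149 and 221 of 936 rows lay within 0.2 of it. Alternatives were 2 other pseudocounts (0.1, 5), 2 other filters (no minimum; 5 FPKM), centring, scaling to a common upper quartile, the highest row of each symbol and leaving out small features (small RNAs, predicted genes and pseudogenes, by name); no pseudocount and only genes alone in their interval were chosen after seeing the data. Simulated pairs with known changes past the line and no added noise were used to check the code only. They do not measure how reliable a call is in these libraries. Python 3.11.15, pandas 2.3.3, numpy 2.4.6 and matplotlib 3.10.9 were used.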

Additional observations from a re-analysis of the deposited data

How the results depend on the processing

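Of 131 values of single members under the 10 alternatives, 126 stayed on their side of the 2-fold line. Axin2 in LacZ-positive over LacZ-negative passed the line with a pseudocount of 0.1 (1.05), centring (1.15), upper-quartile scaling (1.13) and no pseudocount (1.06), and Tnfrsf19 fell inside it with a pseudocount of 5 (0.96). Axin2 and Wif1 in cKO over Het stayed past the line in every alternative that gave them a value, between -2.94 and -1.58 for Axin2 and between -3.16 and -1.77 for Wif1. The count of members past the line in cKO over Het was 1 in place of 2 with only genes alone in their interval, which leaves out Axin2. The median of members there was -2.47 in place of -0.33 with a minimum of 5 FPKM, which leaves 3 members. In the LacZ pair that count was 1 in place of 2 with a pseudocount of 5. The other pathway genes past the line in cKO over Het numbered 6 with a pseudocount of 0.1, 7 with none and 1 with genes alone in their interval, in place of 2. In the LacZ pair they numbered 3 with a pseudocount of 5, in place of 9. Of all genes tested, 234 were higher and 298 lower in cKO over Het; these were 144 and 159 with a pseudocount of 5, 99 and 142 without small RNAs and predicted genes and 108 and 131 alone in their interval. In the LacZ pair 620 were higher and 346 lower; these were 804 and 224 after centring, 282 and 178 with a pseudocount of 5, 406 and 195 without small RNAs and predicted genes, and 315 and 174 alone in their interval, and 528 were lower with a pseudocount of 0.1. No paired analysis was possible because each group has 1 library and the labels give no replicate numbers. Depth is known only as a ratio within a pair, so no counting error can be given for Nkd2, Notum or Sp5.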

Other observations

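Wif1 had no close neighbour in the plane of the 2 log2 differences. The nearest of 8341 genes was Fam40b, at a distance of 0.63, with 0.620 FPKM in cKO-labelled and 9.44 FPKM in Het-labelled cells, and 10.1 FPKM in LacZ-positive and 7.09 FPKM in LacZ-negative cells. It was followed by Fyb (0.66), Tgfb3 (0.80), Bgn (0.91) and Rpl35 (0.95). Bgn, a small proteoglycan of the extracellular matrix, had 4.70 FPKM in cKO-labelled and 47.5 FPKM in Het-labelled cells, and 168 FPKM in LacZ-positive and 335 FPKM in LacZ-negative cells. Of the same genes, 62 lay below the 2-fold line in cKO over Het, and 20 of these lay above it in LacZ-positive over LacZ-negative. The share of the 8341 genes above the line in the LacZ pair was not counted. Over all 13283 genes tested in that pair it was 4.67%. Only Axin2 itself and Braf, Lgr6, Slc38a4 and Top2a were at least as low as Axin2 in cKO over Het and at least as high as it in LacZ-positive over LacZ-negative. This corner was drawn at the values of Axin2, whose LacZ value describes the sort by its own reporter. The place of Axin2 in it is therefore not a result. Top2a, a topoisomerase of dividing cells, had 1.11 FPKM in cKO-labelled and 11.6 FPKM in Het-labelled cells, and 38.3 FPKM in LacZ-positive and 6.42 FPKM in LacZ-negative cells.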
